A study of Mus musculus with 4 samples.

Results

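The genes described are 39 members of the heat shock response and of the unfolded protein response, chosen by symbol, out of 24394 genes kept from the deposited table. All 39 symbols are in that table. They comprise 16 heat shock genes of the cytosol, nucleus and mitochondria and 23 genes of stress in the endoplasmic reticulum (ER), and the sets are described separately. Levels are FPKM, fragment numbers divided by transcript length and by the size of the library, so levels of different genes can be set side by side per unit of transcript length. The samples are 4 libraries of polyA RNA, labelled as colon from C57BL/6 mice of 8 weeks. Mice WT-139 and WT-140 are Usp25+/+, and mice KO-826 and KO-850 are Usp25-/-. All 4 mice had received dextran sulfate sodium (DSS), a compound that injures the colon lining, at 2.5% for 5 days and then normal water for 2 days. A mouse without DSS was not analysed here, so each level is one after this treatment. The sources used here do not give how the Usp25-/- allele was made, nor the sex, litter and housing of the mice. Usp25 encodes a deubiquitinase, an enzyme that takes ubiquitin off proteins, and the comparison asks how its loss changes the tissue's gene expression after DSS.

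The heat shock response is driven by HSF1, a transcription factor that is held inactive by chaperones and is released when unfolded proteins occupy them. HSF1 then binds heat shock elements in the promoters of chaperone genes. The unfolded protein response starts from the ER membrane sensors IRE1, PERK and ATF6, which are kept inactive by the ER chaperone BiP. IRE1 and ATF6 raise chaperones and the machinery of ER-associated degradation, and PERK slows translation while ATF4 is made. Secretory cells of the gut, such as goblet and Paneth cells, are known to depend on this response.

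Usp25 followed the labels, with 38.5 and 16.6 FPKM in mice WT-139 and WT-140 and 2.65 and 1.71 FPKM in mice KO-826 and KO-850. The labelled tissue was poorly matched by its markers. Of 11 genes fixed as markers of colon epithelium, 8 were below 1 FPKM in all 4 libraries, and Zg16, Aqp8 and Cdx1 were listed at 0 in each. By contrast, 0 of 8 lung epithelial genes were below 1 FPKM in all 4 mice, and their summed level was 2247 and 4392 FPKM for Usp25+/+ and 5219 and 5240 FPKM for Usp25-/-. Mouse WT-139 stood apart. Its correlation with the other mice across the 12103 genes tested, which are not independent, was between 0.876 and 0.890, against 0.933 to 0.968 among the others. Of the 24394 genes kept, 3862 were at 0 FPKM in mouse WT-139 and 7175 to 8813 in the other 3. Those at 1 FPKM or more numbered 12058 in mouse WT-139 and 11656 to 11879 in the others. The summed level of 9 neutrophil genes was 41300 FPKM in that mouse and 736 to 2097 FPKM in the other 3. The medians of both sets are therefore also given without it, and every member is shown without it in the plot of differences with each mouse left out.

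In the comparison of Usp25-/- with Usp25+/+, no heat shock member and no ER stress member passed limma's test at a Benjamini-Hochberg adjusted p of 0.05. The same was true of all 12103 genes tested, of which 0% were called and 400 had an unadjusted p under 0.05. All 39 members reached 1 FPKM in at least 2 mice and were tested. Their adjusted p by limma ran from 0.968 to 0.999. The unadjusted p was under 0.05 for 1 member, Ppp1r15a, which was lower in Usp25-/- mice. Over all genes 2.25% had such a p and were higher and 1.06% had one and were lower. The account that follows is therefore one of levels and of their spread over 4 mice. The p-values rest on that spread alone, taken from each gene and, through limma's mean-variance trend, from all genes tested. An exact permutation test of 1 gene with 2 mice against 2 cannot give a p below 0.333. In whole tissue, a change in the number of cells of a type and a change in RNA per cell cannot be told apart.

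**Figure D1:**
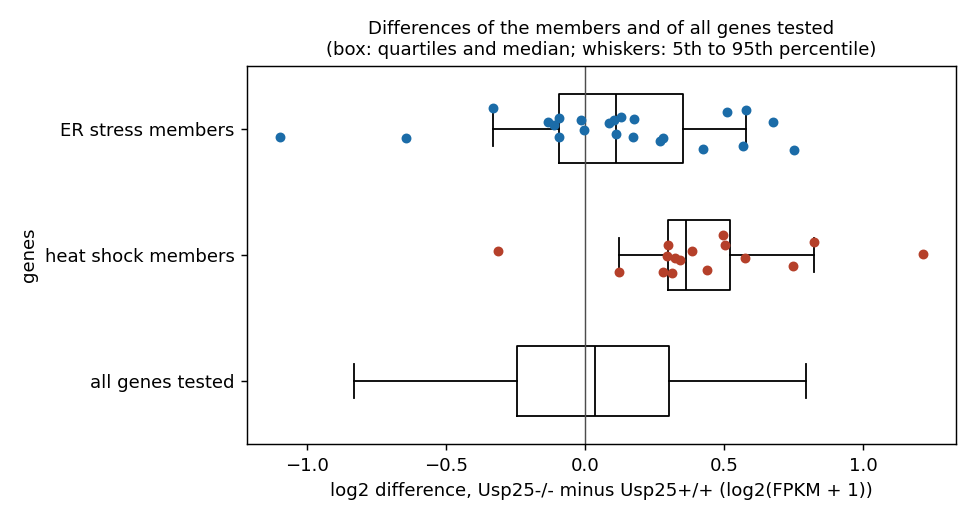
Log2 differences, Usp25-/- minus Usp25+/+, on the log2(FPKM + 1) scale, with 1 point for each heat shock member (16) and each ER stress member (23). Boxes give quartiles and median and whiskers the 5th to 95th percentile, and the medians are 0.36 for heat shock, 0.11 for ER stress and 0.03 for all 12103 genes tested.

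Heat shock genes had higher mean values in Usp25-/- mice for 15 of 16 members, with Hspa4l as the exception, and none of these differences passed the test. Their median log2 difference was 0.36, with quartiles of 0.30 and 0.52, whereas the median over all genes tested was 0.03 and 53.6% of those genes had a difference above 0. Both Usp25-/- mice were above both Usp25+/+ mice for 9 of 16 members, where 19% of all genes tested had that order. In no member were both Usp25-/- mice below both Usp25+/+ mice, where 14.7% of all genes had that order. The lowest of the 4 values belonged to a Usp25+/+ mouse for all 16 members, to mouse WT-139 for 9 and to mouse WT-140 for 7. Over all genes mouse WT-139 was lowest for 39.2% and a Usp25-/- mouse for 37.3%. The genotype difference was larger than the gap between mice of 1 genotype, in both genotypes, for 6 members. That held for 20.1% of all genes. Without mouse WT-139 there were 14 of 16 members with higher values and a median of 0.31, and 48.5% of all genes were then higher. Without mouse WT-140 the median was 0.57, with 13 of 16 members higher. Of the markers, the summed level of 6 gastric epithelial genes had the same order. It stood at 129 and 159.7 FPKM in Usp25+/+ and 2711 and 1045 FPKM in Usp25-/- mice, mostly through Tff1 and Gkn2. Gkn1 and Muc5ac had this order too, whereas Tff2 overlapped between the genotypes and Muc6 was lower in both Usp25-/- mice. Muc5ac and Muc6 were below 1 FPKM in all 4 mice. The summed lung epithelial level was also higher in both Usp25-/- mice, mostly through Sftpb and Sftpc. The median over the 8 lung genes overlapped between the genotypes, at 124 and 150.02 FPKM versus 129 and 179 FPKM, and Scgb1a1, Foxj1 and Hopx were lower on average, with log2 differences of -0.73, -0.68 and -0.17. For the 11 colon epithelial genes the summed level had this order too, at 5.17 and 3.27 FPKM versus 55.3 and 7.95 FPKM. Krt20 made up most of it, with 52.4 FPKM in mouse KO-826. Vil1 was also higher in both Usp25-/- mice, Muc2 was lower in both, and the rest of the list overlapped. The part of these marker genes in the heat shock values was not tested.

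**Figure D2:**
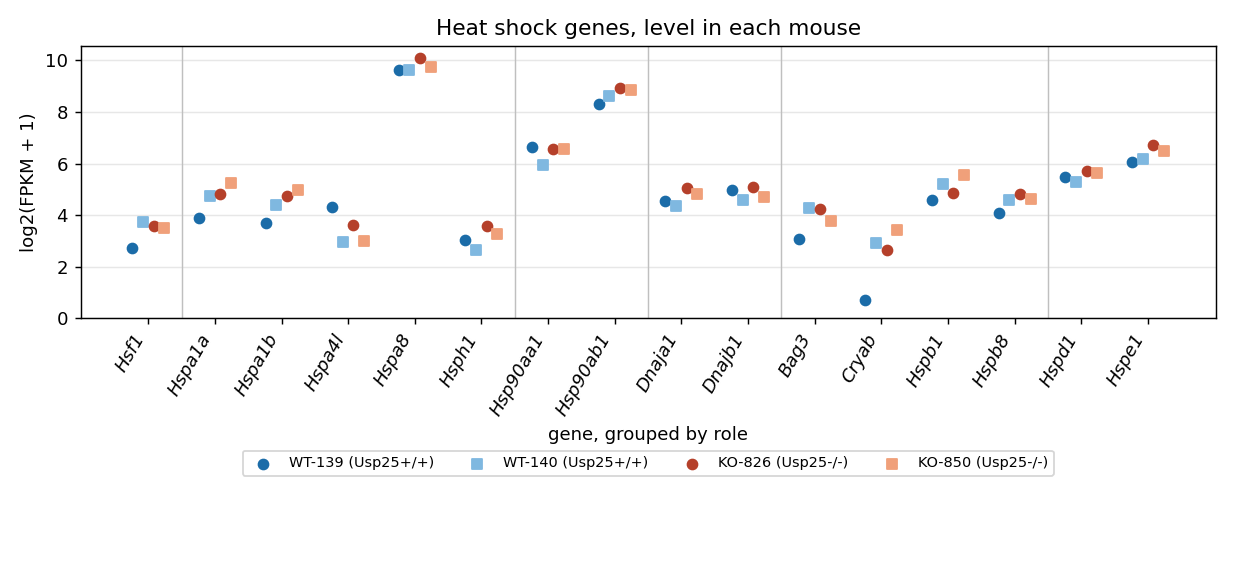
Level of the 16 heat shock members by mouse (4 points for each gene), plotted vertically as log2(FPKM + 1), with genes grouped by role along the horizontal axis and vertical lines between roles. Hspa8 is highest in every mouse, and Cryab in mouse WT-139 is the lowest point at 0.637 FPKM.

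Hsf1, which encodes the transcription factor itself, stood at 5.53 and 12.1 FPKM in mice WT-139 and WT-140 and at 10.8 and 10.2 FPKM in mice KO-826 and KO-850. Its groups overlapped, because mouse WT-139 was the lowest and mouse WT-140 the highest of the 4. The log2 difference of 0.31 ± 0.41 (SE) became -0.19 without mouse WT-139.

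The HSP70 proteins bind unfolded stretches of other proteins and release them in cycles of ATP hydrolysis. Hspa1a and Hspa1b, the stress-inducible HSP70 genes, had among the larger differences of the heat shock set. Hspa1a stood at 13.6 and 25.4 FPKM in mice WT-139 and WT-140 and at 27.6 and 37.2 FPKM in mice KO-826 and KO-850. Hspa1b stood at 11.7 and 20.1 FPKM versus 26.04 and 30.1 FPKM. For both genes the Usp25-/- mice lay above both Usp25+/+ mice, and mouse WT-139 was the lowest of all. The log2 differences were 0.75 ± 0.40 for Hspa1a and 0.82 ± 0.36 for Hspa1b (SE), with unadjusted p of 0.118 and 0.0669 and an adjusted p of 0.968 for each by limma. Without mouse WT-139 they were 0.32 and 0.46, and without mouse WT-140 they were 1.18 and 1.19. The copies lie close together on chromosome 17, Hspa1b from 35093381 to 35096183 and Hspa1a from 35106144 to 35109069 (mm9), both on the minus strand. Of the windows of 50 bases along the longest transcript, 61.0% of those of Hspa1a and 62.1% of those of Hspa1b also occur in the transcripts of another protein-coding gene, so how their fragments were divided is uncertain. Summed, the pair gave 25.4 and 45.5 FPKM versus 53.6 and 67.2 FPKM, a log2 difference of 0.80 ± 0.39 (SE) with a 95% interval of -0.18 to 1.79. This sum was formed after the values had been seen.

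Hspa8, the constitutive HSP70 of the cytosol, was the most abundant member. It stood at 801 and 796 FPKM in mice WT-139 and WT-140, which differed little from each other, and at 1091 and 859.7 FPKM in mice KO-826 and KO-850. Both Usp25-/- mice were higher, but the gap between them was larger than the log2 difference of 0.28 ± 0.38 (SE) between the genotypes, which became 0.11 without mouse KO-826. Its exons hold the small nucleolar RNA genes Snord14c, Snord14d and Snord14e in the annotation, over 6.3% of its exonic bases. Hsph1, an HSP110 protein that exchanges the nucleotide of HSP70, stood at 7.28 and 5.27 FPKM versus 11.04 and 8.57 FPKM, with the Usp25-/- mice above and a log2 difference of 0.58 ± 0.31 (SE), or 0.38 without mouse WT-140. Hspa4l, a relative of Hsph1, went the other way on average. It stood at 18.7 and 6.69 FPKM versus 11.2 and 7.03 FPKM, and mouse WT-139 alone was high. The log2 difference of -0.31 became 0.36 without that mouse.

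The HSP90 chaperones hold near-folded clients such as kinases and steroid receptors. Hsp90ab1, the constitutive form, stood at 316 and 391 FPKM in mice WT-139 and WT-140 and at 489 and 464 FPKM in mice KO-826 and KO-850, with no overlap and a log2 difference of 0.44 ± 0.35 (SE). That difference was 0.28 without mouse WT-139. The inducible form Hsp90aa1 stood at 97.9 and 59.7 FPKM versus 93.4 and 94.5 FPKM. Mouse WT-140 alone was low there, and the difference of 0.29 turned to -0.06 without it. Dnaja1 and Dnajb1 encode J-domain proteins, which deliver clients to HSP70. Dnaja1 stood at 22.2 and 19.4 FPKM versus 32.5 and 27.3 FPKM, a log2 difference of 0.50 ± 0.29 (SE) that stayed between 0.38 and 0.63 whichever mouse was left out. Dnajb1 stood at 29.996 and 23.2 FPKM versus 33.04 and 25.04 FPKM. Its groups overlapped, and its difference of 0.12 was within the gap between mice of either genotype.

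The small heat shock proteins keep denatured proteins from clumping, and BAG3 links HSPB8 and HSP70 to autophagy. Hspb8 was the one gene of this group without overlap, at 16.1 and 22.7 FPKM in mice WT-139 and WT-140 and at 27.3 and 23.3 FPKM in mice KO-826 and KO-850. Its log2 difference of 0.38 became 0.14 without mouse WT-139. Hspb1 stood at 22.9 and 35.5 FPKM versus 27.7 and 46.3 FPKM, with the low and high values of both genotypes interleaved. Bag3 stood at 7.44 and 18.4 FPKM versus 18.04 and 12.8 FPKM, and mouse WT-139 was low alone. Cryab, the alpha-B crystallin gene, which is abundant in muscle and lens, had the largest difference of the 39 members and the widest error. It stood at 0.637 and 6.48 FPKM versus 5.21 and 9.64 FPKM, a log2 difference of 1.22 ± 0.77 with a 95% interval of -0.74 to 3.17. This value rests on mouse WT-139, since without that mouse it was 0.12. The summed level of 8 smooth muscle genes was lowest in the same mouse, at 15.7 FPKM against 17.2 to 22.4 FPKM in the others. Tagln and Acta2 made up most of this sum and were lowest there, as was Des. Lmod1 and Cnn1 were instead highest in that mouse, at 0.630 and 0.341 FPKM. The median over the 8 genes was 0.644 FPKM in mouse WT-139 and 0.669 to 1.10 FPKM in the others. The part of smooth muscle in the Cryab values was not tested.

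Hspd1 and Hspe1 encode HSP60 and HSP10, the ring and the lid of the mitochondrial chaperonin, and are transcribed away from each other. Hspd1 stood at 42.9 and 38.2 FPKM in mice WT-139 and WT-140 and at 51.03 and 48.9 FPKM in mice KO-826 and KO-850. Hspe1 stood at 65.8 and 71.5 FPKM versus 105 and 89.3 FPKM. Both genes had their Usp25-/- mice above and small gaps within each genotype, with log2 differences of 0.30 ± 0.28 and 0.49 ± 0.30 (SE). Leaving out a mouse kept these differences between 0.21 and 0.38 for Hspd1 and between 0.38 and 0.61 for Hspe1. In the annotation their first exons overlap by 112 bases on opposite strands, and the sources used here do not say whether the libraries kept the strand.

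The heat shock element was searched in the 250 bases before the RefSeq start of each gene (build GRCm38.p6), as GAA, 2 bases, TTC, 2 bases, GAA on either strand. Promoters were at hand for 11 of the 16 heat shock members, and 2 of them, Hspd1 and Hspe1, held the element. It occurred in 0.466% of all 32841 promoters of that length. Both genes hold the same site, in which overlapping matches on the 2 strands make 4 units in a row. The stretch is shown because it lies between the starts of the pair, at chr1:55144897-55144926 in the mm9 build. It is read here along the plus strand, the strand of Hspe1, with the units in capitals.

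Hspe1 and Hspd1 shared site: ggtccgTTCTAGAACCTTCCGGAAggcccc

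The site starts 89 bases before the start of Hspe1, and an annotated alternative first exon of Hspd1 covers it. Hspa1a, Hspa1b, Hspb1, Hspb8, Hsph1, Dnaja1, Dnajb1, Bag3 and Hspa4l did not hold these exact letters in this window, and looser forms of the element were not searched.

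Other genes of cytosolic folding were mostly on the higher side too. Of 43 tested genes of a list of 45 other heat shock and cytosolic chaperone genes, 34 were higher and 9 lower in Usp25-/- mice, with 0 past the test, and the median log2 difference was 0.25. The share on the higher side was 79.1%, against 53.6% of all genes tested. For 22 of them (51.2%) the Usp25-/- mice lay above both Usp25+/+ mice, and for 1 below, where all genes gave 19% and 14.7%. Ppid, a cyclophilin that works with HSP90, stood at 10.3 and 11.1 FPKM versus 17.5 and 17.4 FPKM, and Ahsa2, a relative of the HSP90 activator AHA1, at 4.96 and 5.55 FPKM versus 8.67 and 9.19 FPKM. Within each genotype these genes hardly varied, and their unadjusted p by limma was 0.0574 and 0.0579. Fkbp4, an HSP90 partner in steroid receptor complexes, stood at 27.2 and 38.7 FPKM versus 84.4 and 45.97 FPKM. Tcp1, a subunit of the cytosolic chaperonin, stood at 56.8 and 44.8 FPKM versus 89.3 and 74.8 FPKM. On the lower side the smallest p belonged to Hspa2, Bag5, Hspa13 and St13, with log2 differences between -0.32 and -0.17 and unadjusted p between 0.575 and 0.642.

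ER stress genes showed no common direction. Of 23 members 14 had higher and 9 lower mean values in Usp25-/- mice, none past the test, and the median log2 difference was 0.11 against 0.03 over all genes tested. Both Usp25-/- mice lay above both Usp25+/+ mice for 7 members and below for 4, where all genes gave 19% and 14.7%. Chac1 is among the 7, and it passed the filter only through the Usp25-/- mice. With its Usp25+/+ values that order was thus fixed by the filter. The genotype difference exceeded both gaps between mice of 1 genotype for 9 members (39.1%), compared with 6 heat shock members (37.5%) and 20.1% of all genes. The median depended on the mice: it was 0.24 without mouse WT-139, 0.01 without mouse WT-140 and -0.000728 without mouse KO-826. Chac1 failed the filter in the last of these fits. The members with the widest differences in each direction were Ppp1r15a and Atf6 on the lower side and Chac1, Pdia4, Pdia6, Manf and Creld2 on the higher side.

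**Figure D3:**
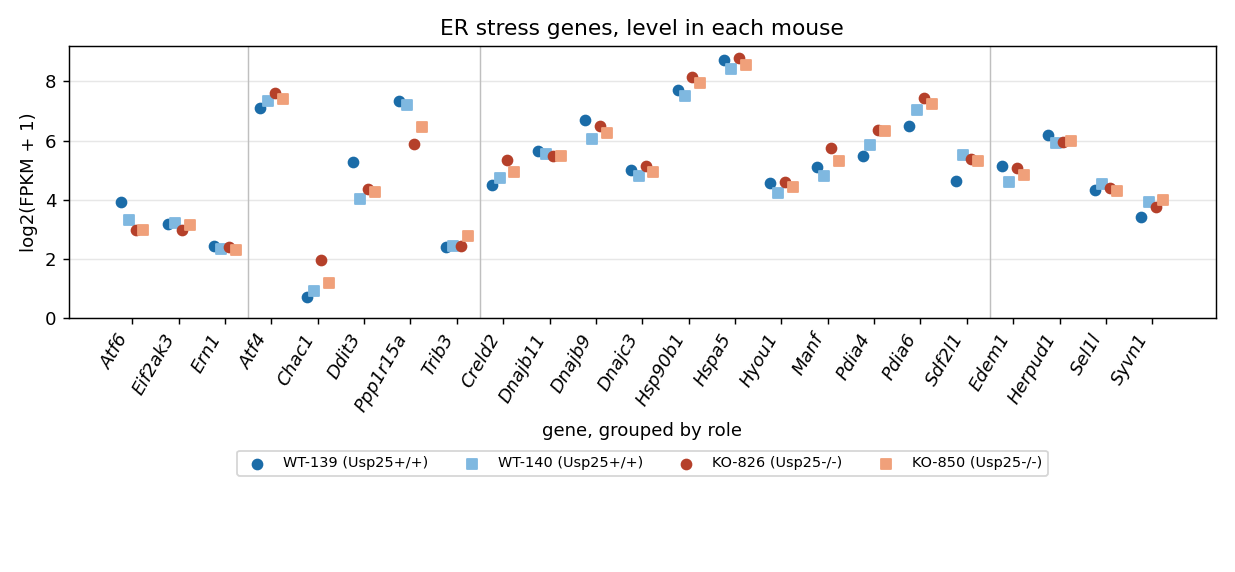
Level of the 23 ER stress members by mouse (4 points for each gene), plotted vertically as log2(FPKM + 1), with genes grouped by role along the horizontal axis. Ppp1r15a and Atf6 lie lower in both Usp25-/- mice than in both Usp25+/+ mice, and Pdia4 lies higher.

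The sensors came first in the pathway and had no higher value in Usp25-/- mice as a mean. Ern1, which encodes IRE1, stood at 4.37 and 4.06 FPKM in mice WT-139 and WT-140 and at 4.33 and 3.98 FPKM in mice KO-826 and KO-850, a log2 difference of -0.02 ± 0.28 (SE). Eif2ak3, which encodes PERK, stood at 8.13 and 8.28 FPKM versus 6.93 and 7.86 FPKM. Both kinases were thus at nearly equal levels in the 4 libraries, with 95% intervals of the log2 difference of -0.73 to 0.70 and -0.83 to 0.56. Atf6, the membrane-bound transcription factor, stood at 14.3 and 8.96 FPKM versus 6.82 and 6.94 FPKM. The Usp25-/- mice were close together and below both others, and mouse WT-139 was the highest. The log2 difference was -0.65 ± 0.33 with limma's unadjusted p at 0.105. Leaving out mouse WT-139 gave -0.34.

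The genes of the PERK and ATF4 branch had no common direction. Ppp1r15a encodes GADD34, which brings a phosphatase to eIF2alpha and so restores translation. It stood at 161 and 146 FPKM in mice WT-139 and WT-140 and at 58.4 and 86.5 FPKM in mice KO-826 and KO-850, or 154 ± 10.4 against 72.5 ± 19.9 (SD, n = 2). Both Usp25-/- mice were below both others. The log2 difference of -1.10 ± 0.34 (SE), with a 95% interval of -1.97 to -0.23, exceeded the gap between mice within either genotype. Its unadjusted p by limma was 0.0224, rank 144 of the 12103 genes, and its adjusted p was 0.968. The value was -1.03 without mouse WT-139 and ranged from -1.38 to -0.82 over the 4 mice left out in turn. The gene lies on chromosome 7 from 52778286 to 52781638 on the minus strand (mm9). Ppp1r15a is also known as an immediate early gene, and the 10 genes listed as immediate early had the same direction. All 10 were lower in Usp25-/- mice on average, with a median log2 difference of -0.42, and none passed the test. Of all 12103 genes tested, 5619 were lower. Both Usp25-/- mice were below both others for 6 of the 10, where 14.7% of all genes had that order. Ier3, Fosb, Nr4a1 and Jun overlapped, and mouse WT-139 was the highest for 5 of the 10. Whether the levels of these 10 genes and that of Ppp1r15a share a source was not tested.

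Atf4, the transcription factor of this branch, stood at 137 and 162 FPKM versus 194 and 169.6 FPKM, slightly higher in Usp25-/- mice and without overlap (log2 difference 0.28 ± 0.32, SE). Mouse WT-139 was the lowest of the 4, and without it the difference was 0.16. ATF4 is known to be controlled through its translation, which these data do not measure. Ddit3, which encodes CHOP, stood at 37.4 and 15.3 FPKM versus 19.6 and 18.1 FPKM. Mouse WT-139 was high alone, and the difference of -0.33 turned to 0.29 without it. Trib3, a pseudokinase induced by CHOP, stood at 4.30 and 4.45 FPKM versus 4.36 and 5.81 FPKM, and its groups overlapped. Chac1, an enzyme that degrades glutathione and a target of ATF4, was the lowest member, at 0.649 and 0.874 FPKM versus 2.89 and 1.25 FPKM. Its Usp25-/- mice lay above both others, mostly through mouse KO-826. It passed the filter only through those mice, so a tested gene with these Usp25+/+ values had to show that order. The log2 difference of 0.75 ± 0.39 (SE) rests on values near 1 FPKM and was 1.24 with a pseudocount of 0.1 in place of 1. The core of the ATF4 composite element, TTGCATCA, was found in the 250 bases before the start of Chac1 and Herpud1 among 20 ER stress members with a promoter, and in 0.792% of all promoters. Chac1 and Herpud1 had log2 differences of 0.75 and -0.09.

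Of 31 tested genes of a list of 33 other ATF4 pathway genes, 19 were higher (61.3%) and 12 lower in Usp25-/- mice. Of all genes tested 53.6% were higher. The median log2 difference of the list was 0.14, and none of its genes passed the test. The 4 with the smallest p on the higher side were Mthfd2, Phgdh, Gars and Psat1. Mthfd2, a mitochondrial folate enzyme, stood at 7.43 and 6.54 FPKM versus 17.4 and 9.90 FPKM, and Phgdh, the first enzyme of serine synthesis, at 14.8 and 33.4 FPKM versus 36.8 and 39.7 FPKM. Gars, a tRNA synthetase, and Psat1, the next enzyme of serine synthesis, had log2 differences of 0.55 and 0.38. The other tRNA synthetases of the list went in both directions. Their log2 differences were 0.34 for Cars, 0.27 for Nars, -0.13 for Aars, -0.21 for Wars and -0.08 for Mars. On the lower side Sesn2, a stress-induced inhibitor of mTORC1 signalling, stood at 10.2 and 10.5 FPKM versus 6.55 and 7.96 FPKM. Eif2ak2, the kinase PKR, and Stbd1 had log2 differences of -0.69 and -0.32, and both overlapped between the genotypes. Eif2ak2 stood at 11.8 and 4.66 FPKM versus 3.79 and 4.82 FPKM, so mouse WT-139 alone was high. Slc7a11, the cystine transporter, stood at 100.2 and 5.72 FPKM versus 17.3 and 8.36 FPKM, high in mouse WT-139 alone.

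Genes of ER chaperones and folding enzymes had higher mean values in Usp25-/- mice for 9 of 11 members, with a median log2 difference of 0.27 and none past the test. Of all genes tested 53.6% were higher, and their median was 0.03. Both Usp25-/- mice were above both others for 5 members and below for 1, where all genes gave 19% and 14.7%. The other 5 overlapped, and of these Hspa5, Dnajb9, Sdf2l1 and Hyou1 changed sign when a mouse was left out. The disulfide isomerases and the stress-induced factors Manf and Creld2 had the larger differences, and the difference of BiP was small. Hspa5, which encodes BiP, was the most abundant ER member at 422 and 343 FPKM in mice WT-139 and WT-140 and at 444 and 376 FPKM in mice KO-826 and KO-850. Its groups overlapped, and its log2 difference was 0.10 ± 0.35 with a 95% interval of -0.80 to 1.00. Hsp90b1, the ER form of HSP90 known as GRP94, stood at 210.2 and 182 FPKM versus 280.5 and 245 FPKM. Its groups did not overlap, and its log2 difference was 0.42 ± 0.33 (SE). Exons of other annotated genes cover 15.7% of its exonic bases, some of them on the opposite strand. Hyou1, an HSP110 relative in the ER, stood at 22.98 and 17.9 FPKM versus 23.4 and 20.7 FPKM, with overlap.

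Pdia4 and Pdia6 encode isomerases that form and reshuffle disulfide bonds. Pdia4 stood at 43.7 and 56.6 FPKM in mice WT-139 and WT-140 and at 81.4 and 78.6 FPKM in mice KO-826 and KO-850, or 50.1 ± 9.16 against 79.98 ± 1.95 (SD, n = 2). Pdia6 stood at 89.3 and 129.6 FPKM versus 174 and 149 FPKM. Neither gene overlapped between the genotypes, and mouse WT-139 was the lowest for both. The log2 differences were 0.67 ± 0.31 and 0.58 ± 0.35 (SE), with unadjusted p of 0.0760 and 0.155 by limma. Without mouse WT-139 they were 0.49 and 0.31. Manf and Creld2 encode small ER proteins that are secreted under stress. Manf stood at 33.9 and 26.7 FPKM versus 53.04 and 38.3 FPKM, and Creld2 at 21.8 and 25.6 FPKM versus 39.4 and 29.5 FPKM. In both, mouse KO-826 was the highest. Without it the differences went from 0.57 to 0.34 for Manf and from 0.51 to 0.31 for Creld2.

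The J-domain proteins of the ER gave smaller differences. Dnajb9, a cofactor of BiP that also restrains IRE1, stood at 102 and 65.9 FPKM versus 89.3 and 74.7 FPKM, with log2 difference -0.00363 and overlap. Dnajb11 stood at 48.7 and 45.5 FPKM versus 43.6 and 43.2 FPKM, lower in both Usp25-/- mice by a small amount (log2 difference -0.11). Dnajc3, known as p58IPK, stood at 31.5 and 26.8 FPKM versus 34.5 and 29.4 FPKM, and its groups overlapped. Sdf2l1, a partner of Dnajb11, stood at 23.6 and 44.8 FPKM versus 40.4 and 38.5 FPKM. Mouse WT-139 was low alone, and the difference of 0.27 turned to -0.18 without it.

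ER-associated degradation pulls misfolded proteins out of the ER for the proteasome. All 4 members overlapped between the genotypes and had log2 differences between -0.09 and 0.17. Herpud1, a membrane adaptor of the complex, stood at 72.5 and 59.5 FPKM versus 60.95 and 61.9 FPKM. Syvn1, the ubiquitin ligase HRD1, stood at 9.82 and 14.3 FPKM versus 12.4 and 14.8 FPKM, and its partner Sel1l at 18.9 and 22.4 FPKM versus 19.9 and 18.5 FPKM. Edem1, a lectin-like protein that selects clients, stood at 34.7 and 23.4 FPKM versus 32.9 and 27.8 FPKM. The 95% intervals of these 4 genes reached from -0.85 to 0.98 at their widest ends.

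The ER stress element, CCAAT and CCACG set 9 bases apart, is the site through which ATF6 is known to act. It was found in the 250 bases before the start of 6 of 20 ER stress members with a promoter, in no heat shock member and in 0.113% of all 32841 promoters. These are Hspa5, Hsp90b1, Pdia6, Dnajc3, Creld2 and Syvn1, and their log2 differences were 0.10, 0.42, 0.58, 0.13, 0.51 and 0.17 in that order. All 6 were above 0, and none passed the test. Of the ER stress members 60.9% were above 0, and of all genes tested 53.6%. The groups of Hspa5, Dnajc3 and Syvn1 overlapped, and Hspa5 and Syvn1 changed sign when a mouse was left out. The sites are shown to let the fixed ends, in capitals, be compared with the spacer, and each is read in the direction of CCAAT.

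Hspa5: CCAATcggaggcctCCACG
Hsp90b1 distal: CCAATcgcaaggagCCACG
Hsp90b1 proximal: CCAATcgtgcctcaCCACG
Pdia6: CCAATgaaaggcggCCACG
Dnajc3: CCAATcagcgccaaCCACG
Creld2: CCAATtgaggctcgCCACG
Syvn1: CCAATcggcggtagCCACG

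The end of each site farther from the gene lies 65 bases before the start for Hspa5, 212 and 107 for Hsp90b1 and 98 for Pdia6. It lies 105 bases before the start for Dnajc3, 126 for Creld2 and 44 for Syvn1. The proximal site of Hsp90b1 and the site of Creld2 face away from their gene. For Hspa5, Hsp90b1 and Pdia6, abundant members with small and larger differences, the stretch around the sites is given in mm9 up to the start or to the first annotated exon of a coding transcript. It is read along the strand of the gene, from the RefSeq promoter table (GRCm38.p6), with the whole element in capitals. The Hspa5 stretch is chr2:34627360-34627609 on the plus strand, that of Hsp90b1 chr10:86168255-86168439 on the minus strand and that of Pdia6 chr12:17273145-17273350 on the plus strand.

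Hspa5: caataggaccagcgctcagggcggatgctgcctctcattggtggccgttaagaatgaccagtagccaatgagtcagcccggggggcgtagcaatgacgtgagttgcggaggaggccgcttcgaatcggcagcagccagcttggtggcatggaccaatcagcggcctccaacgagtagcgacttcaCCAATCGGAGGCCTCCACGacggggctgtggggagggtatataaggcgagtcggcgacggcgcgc
Hsp90b1: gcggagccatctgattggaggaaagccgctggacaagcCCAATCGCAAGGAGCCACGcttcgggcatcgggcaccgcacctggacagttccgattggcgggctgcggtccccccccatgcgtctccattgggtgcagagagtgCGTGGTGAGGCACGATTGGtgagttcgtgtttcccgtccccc
Pdia6: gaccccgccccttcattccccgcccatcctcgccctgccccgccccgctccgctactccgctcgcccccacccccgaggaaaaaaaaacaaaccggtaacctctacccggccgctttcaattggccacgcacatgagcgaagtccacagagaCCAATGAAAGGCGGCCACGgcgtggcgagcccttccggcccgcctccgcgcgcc

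The second UPR motif searched, TGACGTGG on either strand, was in none of the members' promoters and in 0.563% of all promoters. A match describes the letters in the window and says nothing of whether a factor was bound there. Looser forms of the ER stress element, of TTGCATCA and of TGACGTGG were not searched. A promoter without a match lacks only these exact letters in this window.

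Other genes of ER folding and degradation were more often on the higher side. Of 54 tested genes, out of 56 found for a list of 60, 37 were higher (68.5%, against 53.6% of all genes) and 17 lower in Usp25-/- mice. Their median log2 difference was 0.13, and none passed the test. Stc2, a secreted stress-induced glycoprotein, had the smallest p, at 0.942 and 0.154 FPKM versus 5.30 and 2.35 FPKM (log2 difference 1.62 ± 0.47, SE, unadjusted p 0.0174 and adjusted p 0.968 by limma). Both Usp25+/+ mice were below 1 FPKM, so the gene passed the filter only through the Usp25-/- mice, in which it was higher, and its p and its place in the list depend on that. Pdia3, the isomerase that works with calreticulin, stood at 173 and 200.3 FPKM versus 324 and 277 FPKM, and Fkbp2, an ER prolyl isomerase, at 30.99 and 44.1 FPKM versus 60.7 and 53.95 FPKM. In both genes the Usp25-/- mice lay above. Wfs1, an ER membrane protein, had a log2 difference of 0.77. On the lower side Fkbp14, Os9, Sec31a and Atf6b, the paralogue of Atf6, had log2 differences of -0.41, -0.48, -0.27 and -0.29. Derl3 and Ern2, which mark secretory cells, did not pass the filter, with highest levels of 1.59 and 0.531 FPKM. Plasma cells, whose ER is large, were also looked at through 7 genes, whose summed level was 107 and 131 FPKM in Usp25+/+ and 158 and 109 FPKM in Usp25-/- mice, with overlap. Sdc1, which epithelial cells also express, made up 82.3, 55.4, 131 and 72.2 FPKM of these sums. Jchain and Mzb1, which mark plasma cells more narrowly, were highest in mouse WT-140, at 60.9 and 6.27 FPKM.

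**Figure D4:**
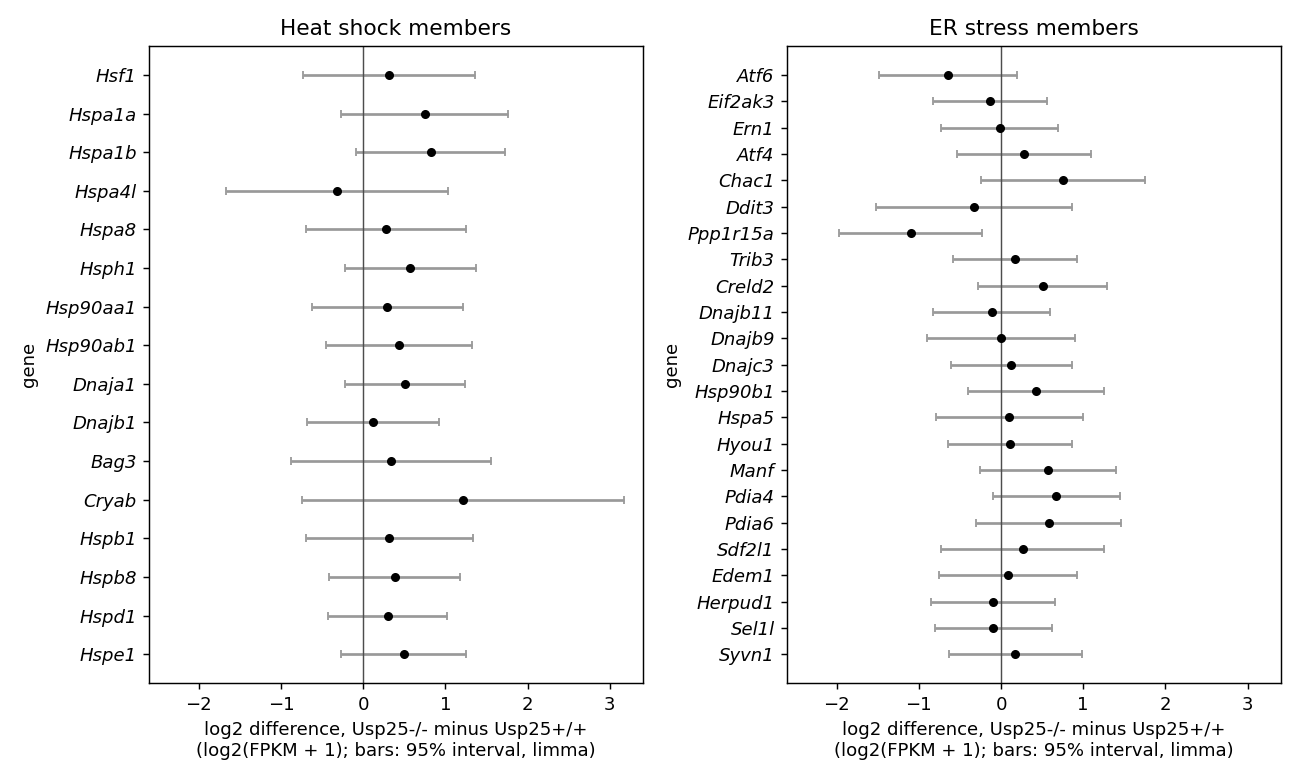
Log2 difference of each member, Usp25-/- minus Usp25+/+, on the log2(FPKM + 1) scale, as a point with its 95% interval from limma. The interval of Ppp1r15a, -1.97 to -0.23, is the only one of the 39 that lies on one side of 0.

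**Figure D5:**
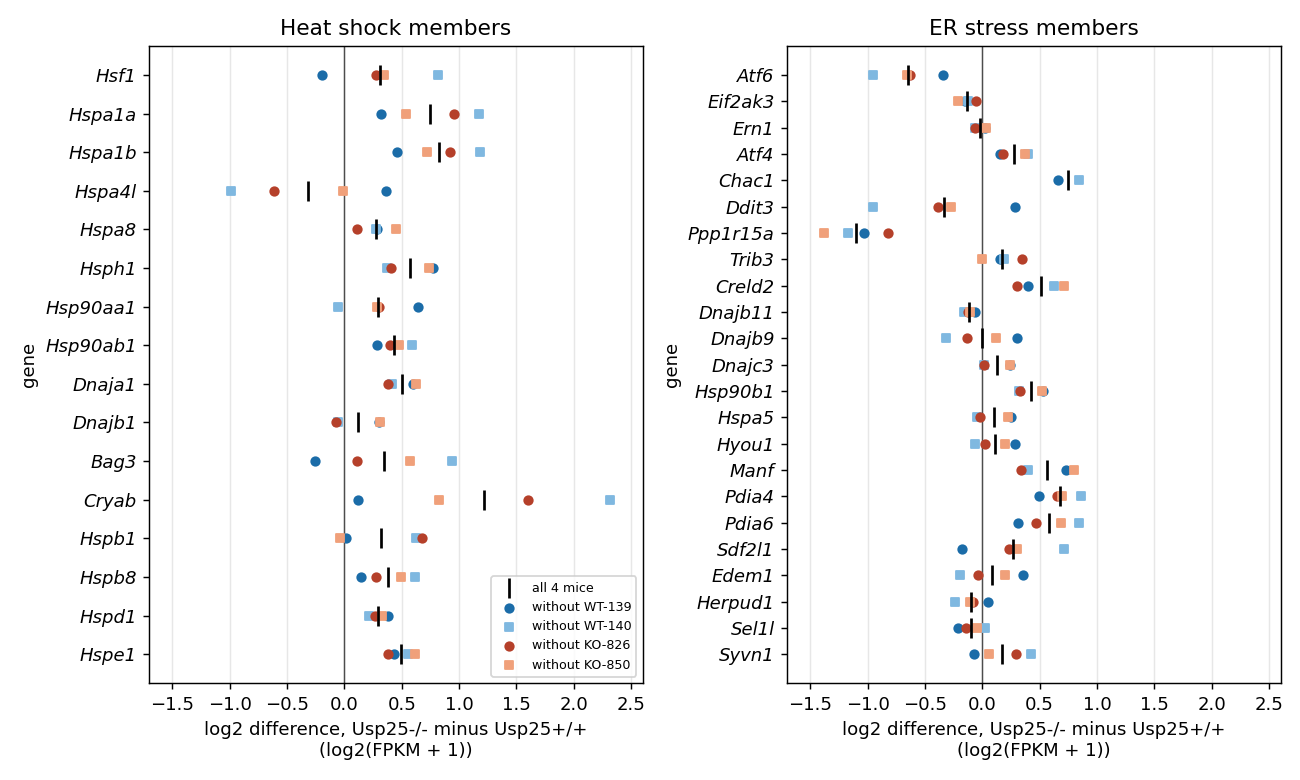
Log2 difference of each member with all 4 mice (black bar) and with each mouse left out (coloured points), on the log2(FPKM + 1) scale. Cryab moves most, from 0.12 without mouse WT-139 to 2.31 without mouse WT-140, and 17 of the 39 members have points on both sides of 0. Chac1 has no point without mouse KO-826 or mouse KO-850, since it then failed the filter.

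Leaving out a mouse changed the sign of the difference in 17 of the 39 members, 6 of the heat shock and 11 of the ER stress set. The other 22 kept it, but 20 of these have groups that do not overlap and so could not change sign in this step. The 2 that kept it in spite of overlap were Cryab and Dnajc3. Chac1, whose groups do not overlap, was fitted only with a Usp25+/+ mouse left out. Without mouse KO-826 or mouse KO-850 it failed the filter. None of the 39 passed limma's adjusted threshold with any mouse left out. Without mouse WT-140, when 163 genes of the table were called, the smallest adjusted p of a member was 0.0971, for Cryab.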

How the data were processed

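Per the submitters' processing notes, Bowtie 0.12.2 and the build mm9 were used. The authors deposited FPKM values, 1 column for each mouse. The sources used here do not give the FPKM tool, annotation, strandedness or filters. The number of reads is unknown: at most 0.882% of genes low in a pair of libraries shared the most frequent ratio between them, so whole fragments were not recovered and no counting interval is given.

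Of 24421 rows, 27 symbols turned into dates were left out. Genes reaching 1 FPKM in at least 2 mice (12103) were fitted as log2(FPKM + 1), a scale that understates changes of low genes, with limma 3.58.1 in R 4.3.3 (mean-variance trend, all 4 mice, no block, two-sided, Benjamini-Hochberg adjustment over all genes tested, threshold 0.05), and limma was tested on simulated data. Gene lists are described by counts and medians. Members and lists were chosen with earlier results of these data known. All members are named. Of each other pathway list, the 4 genes with the smallest p in each direction are named, and Derl3 and Ern2 were added after their values were seen. The other tRNA synthetases of the ATF4 list are named outside this rule.

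All 39 members were placed with the Gencode annotation of mm9. RefSeq promoter sequences (GRCm38.p6) were matched by symbol for 31 members, and those printed were placed in mm9 by exact match with Python 3.11.15. Overlaps were looked up among coding transcripts and annotated exons, and pseudogenes were not searched. The alternatives tried were other pseudocounts, filters, scalings, thresholds and variance models, and each mouse left out.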

Additional observations from a re-analysis of the deposited data

How the results depend on the processing

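Pseudocounts of 0.1 and 0.5, a filter at 5 FPKM or none, scaling to a common total or by median of ratios, limma without a trend and a threshold of 0.1 changed no member's sign and called 0 genes. The smallest adjusted p in these was 0.259. Under each of them 15 of 16 heat shock members were higher. Of the ER stress members 14 of 23 were higher in each, except with the filter at 5 FPKM, which left 20 members with 12 higher. The median over all genes was 0.045 with a pseudocount of 0.1, -0.043 without a filter, 0.053 with the filter at 5 FPKM, 0.021 at a common total and 0.0071 with median of ratios, against 0.03. With each mouse left out in turn, the number of genes called ranged from 0 to 163, the heat shock median from 0.31 to 0.57, the ER stress median from -0.000728 to 0.24 and the median over all genes from -0.014 to 0.098. In these fits the lone mouse of a genotype is assumed to vary like the other pair. The cause was not tested. Heat shock members that changed sign when a mouse was left out ranged over -0.19 to 0.81 for Hsf1, -0.99 to 0.36 for Hspa4l, -0.0582 to 0.64 for Hsp90aa1, -0.0397 to 0.68 for Hspb1, -0.0731 to 0.31 for Dnajb1 and -0.26 to 0.94 for Bag3. ER stress members that did so ranged over -0.0454 to 0.25 for Hspa5, -0.31 to 0.31 for Dnajb9, -0.18 to 0.71 for Sdf2l1, -0.24 to 0.046 for Herpud1, -0.19 to 0.36 for Edem1, -0.21 to 0.0226 for Sel1l, -0.0758 to 0.43 for Syvn1, -0.0658 to 0.0323 for Ern1, -0.95 to 0.29 for Ddit3, -0.00232 to 0.34 for Trib3 and -0.0614 to 0.28 for Hyou1. Summing Hspa1a and Hspa1b, chosen after seeing the data, gave 0.80. No paired analysis was possible because the labels give no litter, batch or pairing between the genotypes. Depth is unknown, so low members such as Chac1 and Cryab cannot be given a counting error.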
